A study of Mus musculus with 10 samples.

Results

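The pyruvate dehydrogenase complex and the genes that control and feed it were followed in adult mouse ventricle. The members were 10 genes chosen by symbol: the subunit genes Pdha1, Pdhb, Dlat, Dld and Pdhx, the kinase genes Pdk2 and Pdk4, the phosphatase gene Pdp1, and the mitochondrial pyruvate carrier genes Mpc1 and Mpc2. Of these, 9 had a probe set annotated with that symbol alone, 1 probe set per gene, out of 19938 genes so annotated. The signal of Mpc2 was not analysed here, and only its promoter was examined. All 9 lay above the limit set on dim probe sets, among 13953 genes tested.

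RNA from both ventricles of 10 mice was hybridised to Affymetrix mouse gene arrays, 1 mouse per array, and all mice were sampled at 3 months of age. The tamoxifen-labelled group held 5 mice titled PGC-1a-/-bf/f/MerCre, given tamoxifen in sunflower seed oil at 50 mg/kg per day on 2 days at 2 months of age, and its labels read PGC-1a KO/PGC-1b KO. The vehicle-labelled group held 5 mice titled PGC-1a-/-, given the oil alone on the same days, and its labels read PGC-1a KO with unaffected PGC-1b expression. The source names give the floxed PGC-1b alleles and MerCre, a Cre recombinase switched on by tamoxifen, to both groups, while the titles give them to the tamoxifen-labelled group alone. All 10 mice therefore lacked PGC-1a by label, and no wild-type heart was analysed here. No label names the promoter that drives MerCre. Tamoxifen, active Cre and the deletion came together in 1 group, so their parts cannot be told apart.

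The complex sits in the mitochondrial matrix and turns pyruvate into acetyl-CoA, the step that commits carbon from glucose and lactate to oxidation. Its E1 enzyme, made from Pdha1 and Pdhb, decarboxylates pyruvate. The E2 enzyme Dlat passes the acetyl group to coenzyme A on a lipoyl arm, and the E3 enzyme Dld, anchored by Pdhx, reoxidises that arm. Kinases of the Pdk family phosphorylate E1 alpha and switch the complex off, and phosphatases such as Pdp1 switch it back on. PGC-1a and PGC-1b bind transcription factors and raise the output of genes for oxidative metabolism, and Pdk4 is a known target of the PPAR and estrogen-related receptors that they coactivate.

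The labels were checked first. Values are RMA log2 signals, so a difference of 1 is a doubling. Ppargc1b, the gene of PGC-1b, read 9.93, 10.15, 10.11, 9.93 and 10.03 in tamoxifen-labelled arrays 1 to 5 and 9.76, 9.69, 9.82, 9.65 and 9.90 in vehicle-labelled arrays 1 to 5. It was thus higher in the group labelled as deleted, by 0.27 ± 0.061 (SE; limma adjusted p = 0.00528). Ppargc1a, the gene of PGC-1a, labelled as deleted in all 10 mice, read 10.95, 11.58, 11.13, 11.20 and 11.14 in the tamoxifen-labelled arrays and 10.83, 11.04, 10.71, 10.70 and 10.79 in the vehicle-labelled arrays, so its probe set gave clear signal in both groups. The labels do not say which exons were deleted or floxed, and signal from exons outside the deletion would check nothing. Every direction below is drawn from the labels. Over all 13953 genes, 8.28% were called lower and 13.6% higher in the tamoxifen-labelled arrays at an adjusted p of 0.05, and the median log2 difference was 0.014. Array 2 of the tamoxifen-labelled group had the highest median log2 value, 7.31, where the other 9 arrays had 7.18 to 7.24, and leaving it out changed no member's call.

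All 5 subunit genes of the complex were lower in the tamoxifen-labelled arrays, whereas neither kinase gene passed the test. Of the 9 measured members, 7 were called lower and 0 higher. The falls ranged from 2.18-fold in Dlat to 1.19-fold in Pdp1. In 8 of the 9 every tamoxifen-labelled array lay below every vehicle-labelled one, which 6.12% of all tested genes did, and in 0 of them did every tamoxifen-labelled array lie above, which 10.5% of all genes did. These are bulk samples, in which fewer cells of a type and less RNA per cell cannot be told apart.

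**Figure D1:**
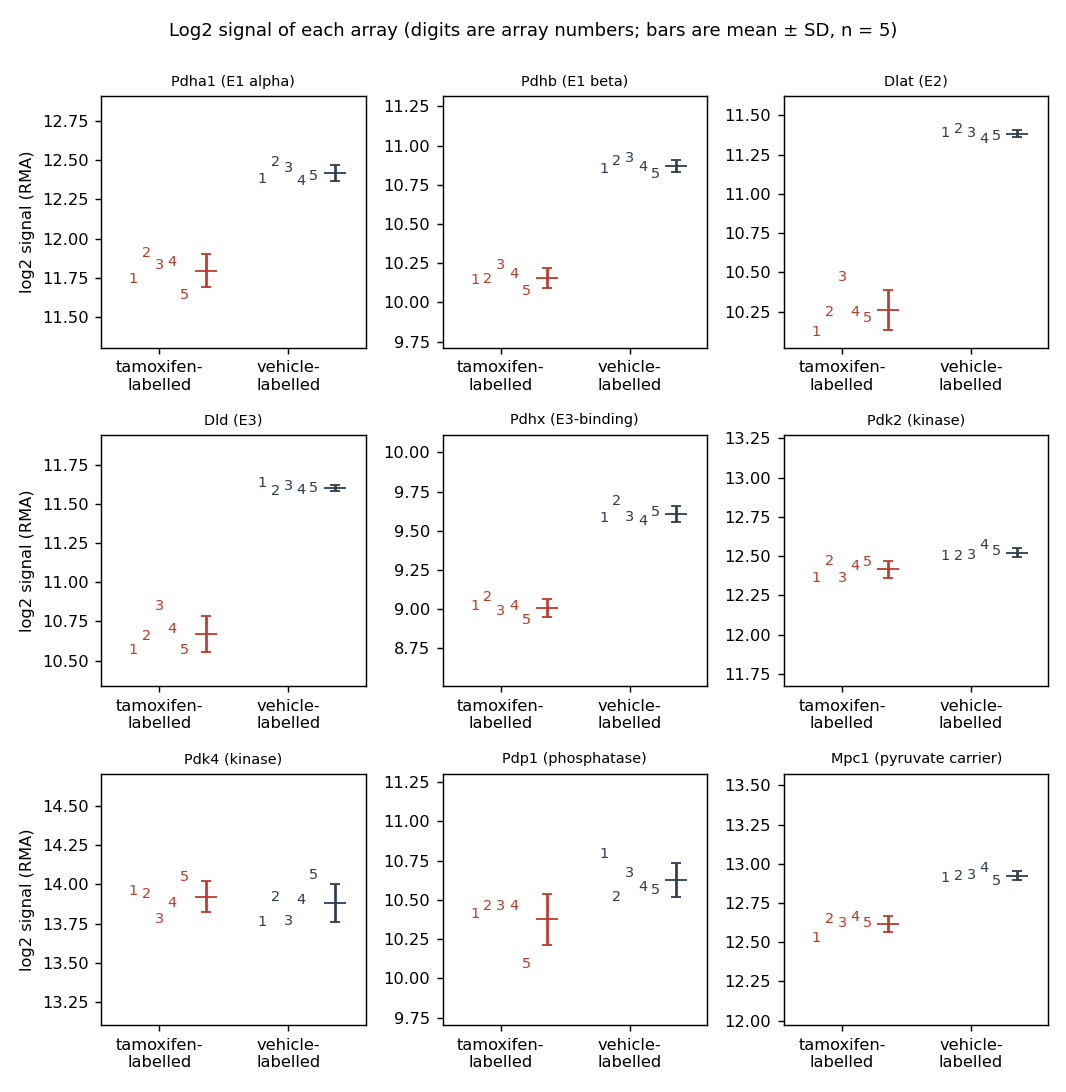
RMA log2 signal (y axis, spanning 1.6 log2 units in each panel) of the 9 measured genes in the 5 tamoxifen-labelled and 5 vehicle-labelled arrays, with digits for the array numbers and bars for mean ± SD. The 5 subunit genes are separated by gaps of 0.46 to 0.88 between the groups, Pdk2 by 0.03, and the groups overlap in Pdk4.

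E1 was the first enzyme of the complex examined. Pdha1, the E1 alpha subunit that carries the regulatory phosphorylation sites, had log2 signals of 11.74, 11.91, 11.83, 11.85 and 11.64 in tamoxifen-labelled arrays 1 to 5, against 12.38, 12.49, 12.45, 12.37 and 12.40 in vehicle-labelled arrays 1 to 5. The groups were separated by 0.46, and array 5 was the lowest of the tamoxifen-labelled arrays. Pdha1 was lower by a log2 difference of -0.62 ± 0.056 (SE; limma adjusted p = 5.47e-07), or 1.54-fold. Pdhb, the E1 beta subunit, read 10.14, 10.15, 10.24, 10.18 and 10.07 in the tamoxifen-labelled arrays and 10.85, 10.90, 10.92, 10.86 and 10.82 in the vehicle-labelled arrays. Array 5 was again the lowest tamoxifen-labelled one, and the groups were separated by 0.58. Pdhb was lower by -0.71 ± 0.048 (SE; limma adjusted p = 2.15e-08), or 1.64-fold. The testis-expressed paralog of Pdha1, Pdha2, was below the limit on dim probe sets in these hearts, with 4.70 ± 0.18 in tamoxifen-labelled and 4.79 ± 0.15 in vehicle-labelled arrays (SD, n = 5 each).

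Dlat, the lipoyl-bearing E2 core, had the deepest fall of the complex. Its log2 signals were 10.12, 10.25, 10.47, 10.25 and 10.21 in the tamoxifen-labelled arrays, against 11.39, 11.41, 11.39, 11.35 and 11.37 in the vehicle-labelled arrays. The tamoxifen-labelled arrays spread more (SD 0.129) than the vehicle-labelled ones (SD 0.0228), and the groups were 0.88 apart at their nearest arrays. The log2 difference was -1.12 ± 0.059 (SE; limma adjusted p = 2.79e-09), and only 12 of the 13953 tested genes had a deeper one. Dld, the E3 flavoprotein, read 10.57, 10.66, 10.85, 10.70 and 10.57 in the tamoxifen-labelled arrays and 11.63, 11.58, 11.61, 11.59 and 11.60 in the vehicle-labelled arrays. Tamoxifen-labelled array 3 was the highest of its group for both genes, and the groups did not overlap. Dld was lower by -0.93 ± 0.056 (SE; limma adjusted p = 7.25e-09), or 1.91-fold, with 34 genes falling more. Dld also serves the 2-oxoglutarate and branched-chain complexes and the glycine cleavage system, so its value belongs to them too.

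Pdhx, the E3-binding protein that ties Dld to the E2 core, had the smallest fall of the 5 subunit genes, close to that of Pdha1. It read 9.02, 9.08, 8.99, 9.02 and 8.93 in the tamoxifen-labelled arrays and 9.58, 9.69, 9.59, 9.56 and 9.62 in the vehicle-labelled arrays. Both groups were tight and did not overlap, with a log2 difference of -0.60 ± 0.048 (SE; limma adjusted p = 1.54e-07), or 1.52-fold lower.

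The kinases behaved otherwise. Pdk4, the kinase known to rise in the heart with fasting and fatty acid supply, had log2 signals of 13.96, 13.94, 13.78, 13.88 and 14.05 in the tamoxifen-labelled arrays and 13.76, 13.92, 13.77, 13.90 and 14.06 in the vehicle-labelled arrays. The groups overlapped over almost their whole range. Its log2 difference was 0.04 ± 0.065 (SE; limma adjusted p = 0.720), with a 95% interval from -0.099 to 0.18. That interval leaves out falls of the size seen in any subunit gene. Pdk2, the other kinase gene among the members, read 12.36, 12.47, 12.36, 12.44 and 12.46 in the tamoxifen-labelled arrays. Its vehicle-labelled arrays read 12.50, 12.50, 12.51, 12.57 and 12.53. All tamoxifen-labelled values were below all vehicle-labelled ones, but only by 0.03. The log2 difference of -0.10 ± 0.046 did not pass the test (SE; limma adjusted p = 0.121; 95% interval -0.20 to -0.0066). Pdk2 passed, as lower, after quantile normalization (-0.13, adjusted p = 0.0217) and when the variance prior was robust and followed the signal level (adjusted p = 0.0287).

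Pdp1, the calcium-sensitive catalytic subunit of the phosphatase, read 10.41, 10.46, 10.46, 10.46 and 10.09 in the tamoxifen-labelled arrays, against 10.79, 10.52, 10.67, 10.58 and 10.56 in the vehicle-labelled arrays. The groups did not overlap but were only 0.06 apart, and tamoxifen-labelled array 5 lay well below the other arrays. Pdp1 was lower by -0.25 ± 0.074 (SE; limma adjusted p = 0.0247). The call was lost without tamoxifen-labelled array 5 (-0.18, adjusted p = 0.0514), vehicle-labelled array 1 (-0.21, adjusted p = 0.0668) or vehicle-labelled array 3 (-0.24, adjusted p = 0.0549), and without the limit on dim probe sets (adjusted p = 0.0586).

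Mpc1, which with Mpc2 forms the carrier that brings pyruvate across the inner mitochondrial membrane, read 12.53, 12.65, 12.62, 12.66 and 12.62 in the tamoxifen-labelled arrays, against 12.91, 12.92, 12.93, 12.97 and 12.89 in the vehicle-labelled arrays. The groups were 0.23 apart. Mpc1 was lower by -0.31 ± 0.046 (SE; limma adjusted p = 0.000129), or 1.24-fold. RefSeq lists a pseudogene, Mpc1-ps, whose transcripts this probe set may also bind.

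**Figure D2:**
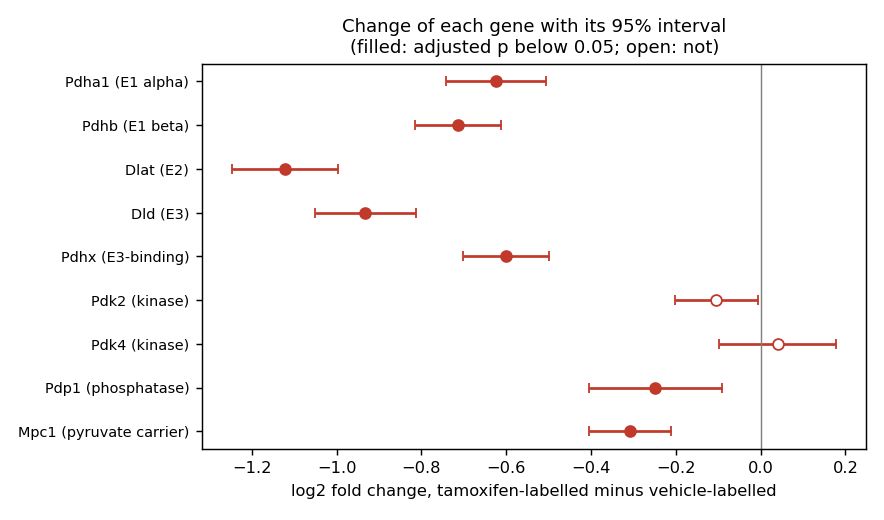
Log2 fold change (x axis, tamoxifen-labelled minus vehicle-labelled) of each measured gene with its 95% interval from limma, n = 5 arrays per group. The subunit genes lie between -1.12 and -0.60, Mpc1 and Pdp1 at -0.31 and -0.25, and the intervals of Pdk2 and Pdk4 reach to -0.0066 and 0.18 at their upper ends.

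Shown here are promoters of Dlat, the member that fell most, Pdhb, which has a repeated promoter element, and Pdk4, whose groups overlapped. They are examples, and the boxes marked in capitals do not separate the subunit genes from the kinase genes. Each is the 250 bases before the RefSeq start on build GRCm38.p6, written 5′ to 3′ on the gene's minus strand, with capitals for the CCAAT box (CCAAT, or ATTGG on the other strand) and the GC box (GGGCGG, or CCGCCC). The Dlat stretch is chr9:50659781-50660030, that of Pdhb chr14:8172993-8173242 and that of Pdk4 chr6:5496279-5496528.
Dlat: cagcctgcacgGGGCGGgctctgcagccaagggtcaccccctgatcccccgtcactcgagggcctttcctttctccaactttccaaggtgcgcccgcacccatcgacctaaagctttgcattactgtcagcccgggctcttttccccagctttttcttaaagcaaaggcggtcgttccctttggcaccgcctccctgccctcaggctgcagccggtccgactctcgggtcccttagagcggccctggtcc
Pdhb: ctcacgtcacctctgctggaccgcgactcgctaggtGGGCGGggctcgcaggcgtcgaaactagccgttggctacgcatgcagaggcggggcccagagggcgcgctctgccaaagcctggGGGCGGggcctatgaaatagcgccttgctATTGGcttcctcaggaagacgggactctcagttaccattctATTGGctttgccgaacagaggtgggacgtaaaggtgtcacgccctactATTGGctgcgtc
Pdk4: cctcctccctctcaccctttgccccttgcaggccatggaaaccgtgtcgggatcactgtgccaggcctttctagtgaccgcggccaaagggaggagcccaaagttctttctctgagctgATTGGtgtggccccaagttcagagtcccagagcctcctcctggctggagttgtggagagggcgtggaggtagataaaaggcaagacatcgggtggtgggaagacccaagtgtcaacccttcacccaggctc

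Windows of 300 bases, 250 before the start and 50 after it, were searched on both strands for 9 of the 10 members. There were 11 windows, since Pdk2 and Mpc1 have 2 starts each. Mpc2 was among the genes searched, while Pdp1 had no promoter to search. The estrogen-related receptor element TNAAGGTCA was in 0 of 11 windows and in 1.28% of all 32851 windows of that table, and its shorter core AAGGTCA, which lies within it, in 0 of 11 and 4.72% of all. The PPAR and RXR element, AGGTCA repeated after any single base, which shares AGGTCA with that core, was in 0 of 11 and 0.0396% of all. The nuclear respiratory factor 1 element, GCGC and TGCGC with any base between them, was in 1 of 11, that of Dld, and in 4.6% of all, and the ETS element CCGGAAG in 1 of 11, that of Mpc1, and in 8.86% of all. The CCAAT box, searched after the windows had been read, was in 7 of 11 windows, that of Pdk4 included, and in 37.4% of all. Pdhb held 3 of them, as did 1 of the Pdk2 windows. The GC box, searched at the same stage, was in 6 of 11 windows and in 35.7% of all. It was in the windows of Dlat, Pdhb, Pdhx and Mpc2 and in both of Mpc1. The windows of the subunit genes Pdha1 and Dld lacked it, as did those of Pdk2 and Pdk4. No match says only that these letters are not in the window.

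How unequal the changes were was tested within arrays, by taking the log2 difference of 2 genes on each array and permuting the group labels exactly (two-sided). In all 42 pairs of genes were tested, 36 of them between members, with p-values adjusted over the 42; 0.00794 is the smallest p that 5 against 5 arrays can give, and it stood at an adjusted p of 0.0111. Of the 36 pairs between members, 30 passed. Dlat fell more than Pdk4 by -1.16 ± 0.11, and more than Pdk2 by -1.02 ± 0.072 (SE; exact permutation adjusted p = 0.0111 for each). Each of the 5 subunit genes fell more than each kinase gene at that same adjusted p, the smallest of these differences being -0.50 ± 0.046 (SE) for Pdhx minus Pdk2. All such comparisons are of probe set signal. Whether 2 probe sets of unlike brightness respond equally to a change in RNA was not tested.

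Within the complex, Dlat fell more than Dld by -0.19 ± 0.022, and it also fell more than the E1 genes, with Pdhb minus Dlat at 0.41 ± 0.044 and Pdha1 minus Dlat at 0.50 ± 0.061 (SE; exact permutation adjusted p = 0.0111 for each). Pdha1 and Pdhb, which assemble into E1 together, did not pass (0.09 ± 0.038, SE; exact permutation adjusted p = 0.0588). This pair did pass without tamoxifen-labelled array 5 (0.11, adjusted p = 0.0404) or vehicle-labelled array 2 (0.10, adjusted p = 0.0392). Pdha1 and Pdhx did not pass either (-0.024 ± 0.032, SE; exact permutation adjusted p = 0.525). Mpc1 fell less than every subunit gene, the closest being Pdhx minus Mpc1 at -0.29 ± 0.044, and more than Pdk2, with Pdk2 minus Mpc1 at 0.20 ± 0.022 (SE; exact permutation adjusted p = 0.0111 for both). Pdk2 and Pdk4 did not pass against each other (-0.14 ± 0.064, SE; exact permutation adjusted p = 0.0857), but did after quantile normalization or without vehicle-labelled array 5 (-0.18 and -0.19, adjusted p = 0.0392 for each).

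**Figure D3:**
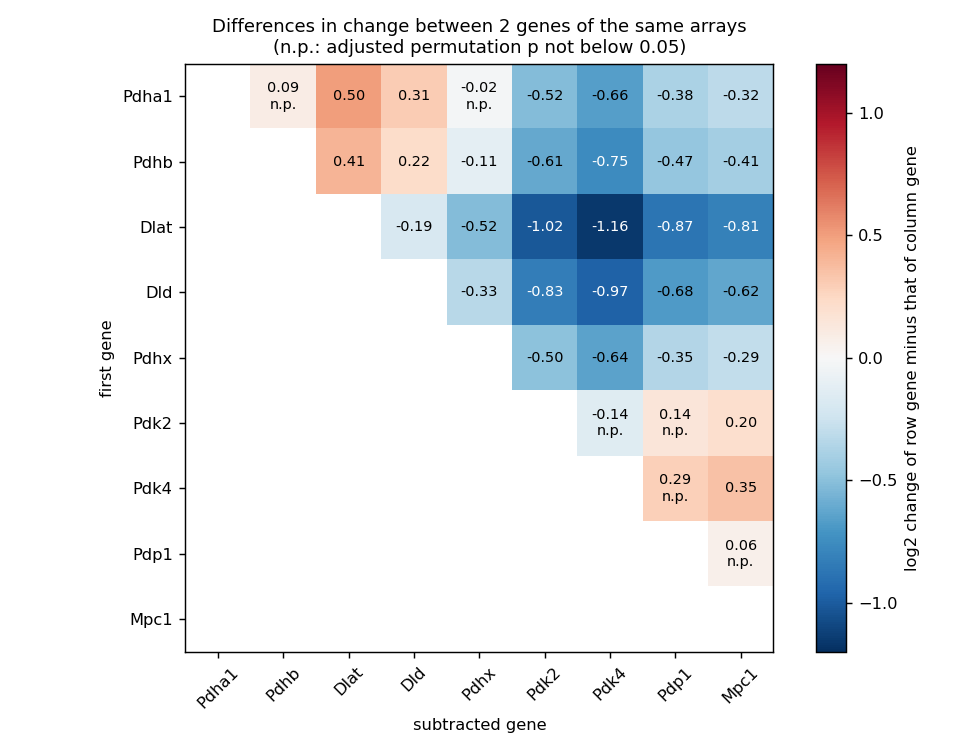
Difference between the log2 fold changes of 2 genes (row gene minus column gene) measured within the same arrays, with n.p. where the adjusted exact permutation p over 42 pairs was not below 0.05. The columns of Pdk2 and Pdk4 hold the most negative differences, down to -1.16 for Dlat minus Pdk4, and 6 of the 36 pairs carry n.p.

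Pdpr, the regulatory subunit of the phosphatase, read 9.62 in the tamoxifen-labelled mean and 10.21 in the vehicle-labelled mean and was lower by -0.59 ± 0.056 (SE; limma adjusted p = 1.17e-06). Pdp2, the second catalytic phosphatase gene, was lower by -0.44 ± 0.089 (SE; limma adjusted p = 0.0022). In both genes every tamoxifen-labelled array lay below every vehicle-labelled one. Pdk3 was higher by 0.17 ± 0.053 (SE; limma adjusted p = 0.0292) with overlapping groups, and its call was lost without tamoxifen-labelled array 4 or 5 or vehicle-labelled array 1, 3 or 5, with adjusted p of 0.064, 0.0516, 0.0725, 0.0519 and 0.0799. The Pdk3 call was also lost without the limit on dim probe sets. Pdk1 did not pass (0.13 ± 0.061, SE; limma adjusted p = 0.154), although it did with array weights (0.18, adjusted p = 0.0239). Thus 2 of the 4 tested genes of this list were lower and 1 was higher. The counts of this list and of those below stand beside 8.28% lower and 13.6% higher over all tested genes. Kinase against phosphatase was tested directly only for members, and neither Pdk2 minus Pdp1 (0.14 ± 0.10, SE; exact permutation adjusted p = 0.237) nor Pdk4 minus Pdp1 (0.29 ± 0.15, SE; exact permutation adjusted p = 0.120) passed.

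The genes that supply the cofactors of the complex were examined next. Of 9 tested genes of lipoic acid synthesis and attachment, 5 were lower and 0 higher, with a median log2 difference of -0.19 against 0.014 over all genes. Ndufab1, the mitochondrial acyl carrier protein on which the lipoyl precursor is built and which is also a part of complex I, was lower by -1.004 ± 0.072 (SE; limma adjusted p = 4.57e-08). Cbr4 and Mecr, reductases of mitochondrial fatty acid synthesis, were lower by -0.38 ± 0.054 and -0.25 ± 0.063, and the acyltransferase gene Mcat by -0.19 ± 0.052 (SE; limma adjusted p of 0.016 or below for all 3). Lias, the lipoic acid synthase, was lower by -0.20 ± 0.060 (SE; limma adjusted p = 0.0255), and this was lost without tamoxifen-labelled array 3 or 5 or vehicle-labelled array 1, 2 or 3, with adjusted p of 0.0541, 0.0657, 0.0588, 0.0601 and 0.0521. The Lias call was also lost without the limit on dim probe sets. Oxsm, the ketoacyl synthase of the same pathway, did not pass (-0.15 ± 0.059, SE; limma adjusted p = 0.0876). Of the thiamine genes, which serve the E1 cofactor, Slc19a2, a thiamine transporter, was lower by -0.33 ± 0.059 (SE; limma adjusted p = 0.000743), and Thtpa, a thiamine triphosphatase, did not pass (0.028 ± 0.057, SE; limma adjusted p = 0.777).

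The 2-oxoglutarate and branched-chain dehydrogenase complexes share Dld and the plan of an E1 and an E2 enzyme, and the branched-chain complex also has a kinase and a phosphatase of its own. Of the 10 tested genes listed for these complexes, the related E1 gene Dhtkd1 among them, 8 were lower and 0 higher (median -0.57). Dlst, the E2 of the 2-oxoglutarate complex, was lower by -1.08 ± 0.058, and its E1 gene Ogdh by -0.36 ± 0.048 (SE; limma adjusted p = 3.21e-09 and 3.94e-05). In the branched-chain complex Dbt, Bckdha and Bckdhb were lower by -0.72 ± 0.052, -0.71 ± 0.055 and -0.51 ± 0.048, and the phosphatase gene Ppm1k by -1.08 ± 0.074 (SE; limma adjusted p of 9.16e-07 or below for all 4). Its kinase gene Bckdk, whose comparison with Pdk4 was among the 42 pairs, had a log2 difference of -0.002 ± 0.052 (SE; limma adjusted p = 0.985).

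In the tests within arrays, Dlat and Dlst did not pass against each other (-0.04 ± 0.029, SE; exact permutation adjusted p = 0.282), while Dlat fell more than Dbt (-0.41 ± 0.053, SE; exact permutation adjusted p = 0.0111). Pdha1 fell more than Ogdh (-0.26 ± 0.062, SE; exact permutation adjusted p = 0.0111) and did not pass against Bckdha (0.09 ± 0.053, SE; exact permutation adjusted p = 0.153). Pdk4 did not pass against Bckdk (0.042 ± 0.069, SE; exact permutation adjusted p = 0.579). The phosphatase genes differed, with Pdp1 minus Ppm1k at 0.83 ± 0.069 (SE; exact permutation adjusted p = 0.0111), so that Ppm1k fell more. Measured by the distance of array profiles, the 5 tested genes most like Dlat were the respiratory chain genes Uqcrfs1, Ndufv1 and Cyc1, the ATP synthase gene Atp5o and the E2 gene Dlst, with root mean square distances of 0.033 for Uqcrfs1, 0.0498 for Dlst and 0.0596 log2 units for Cyc1 over the 10 arrays, after subtracting each gene's vehicle-labelled mean. Genes chosen by this distance have, by construction, a difference between the groups close to that of Dlat.

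Genes that make pyruvate or send it elsewhere went both ways, with 6 of 15 lower and 7 higher (median -0.066). Over all tested genes 8.28% were lower and 13.6% higher. Slc16a3, a monocarboxylate transporter known for lactate export, was higher by 0.70 ± 0.064 (SE; limma adjusted p = 6.74e-07). Ldha, the lactate dehydrogenase subunit of glycolytic tissue, was higher by 0.30 ± 0.046 (SE; limma adjusted p = 0.000163). Its heart isoform Ldhb, named after its value was seen, was lower by -0.22 ± 0.046 (SE; limma adjusted p = 0.00294). In each of these 3 genes the groups did not overlap.

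Mitochondrial pyruvate enzymes and transaminases were among those that fell. Ldhd, which oxidises D-lactate to pyruvate, was lower by -0.40 ± 0.059, the carboxylase gene Pcx by -0.30 ± 0.053 and the alanine transaminase gene Gpt by -0.34 ± 0.058 (SE; limma adjusted p of 0.000753 or below for all 3). Of the malic enzymes, the mitochondrial Me3 was lower by -0.50 ± 0.052 (SE; limma adjusted p = 3.02e-06), while the cytosolic Me1 and the mitochondrial Me2, named after their values were seen, were higher by 0.17 ± 0.048 and 0.24 ± 0.065 (SE; limma adjusted p = 0.0156 and 0.0141).

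Of 8 tested genes that use or move the acetyl-CoA that the complex makes, 4 were lower and 1 higher (median -0.14). Citrate synthase, Cs, was lower by -0.35 ± 0.047, the thiolase gene Acat1 by -0.44 ± 0.048 and the carnitine acetyltransferase gene Crat by -0.18 ± 0.042 (SE; limma adjusted p of 0.00603 or below for all 3). Acly, which makes acetyl-CoA in the cytosol, was higher by 0.16 ± 0.044 (SE; limma adjusted p = 0.0156). Slc25a1, the citrate carrier, did not pass (0.12 ± 0.060, SE; limma adjusted p = 0.159). Mlycd, the malonyl-CoA decarboxylase, was lower by -0.18 ± 0.056 (SE; limma adjusted p = 0.0265), a call lost without tamoxifen-labelled array 1 or 3 or vehicle-labelled array 2, 3 or 5, with adjusted p of 0.0636, 0.0653, 0.0566, 0.055 and 0.0759. The Mlycd call was also lost without the limit on dim probe sets.

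**Figure D4:**
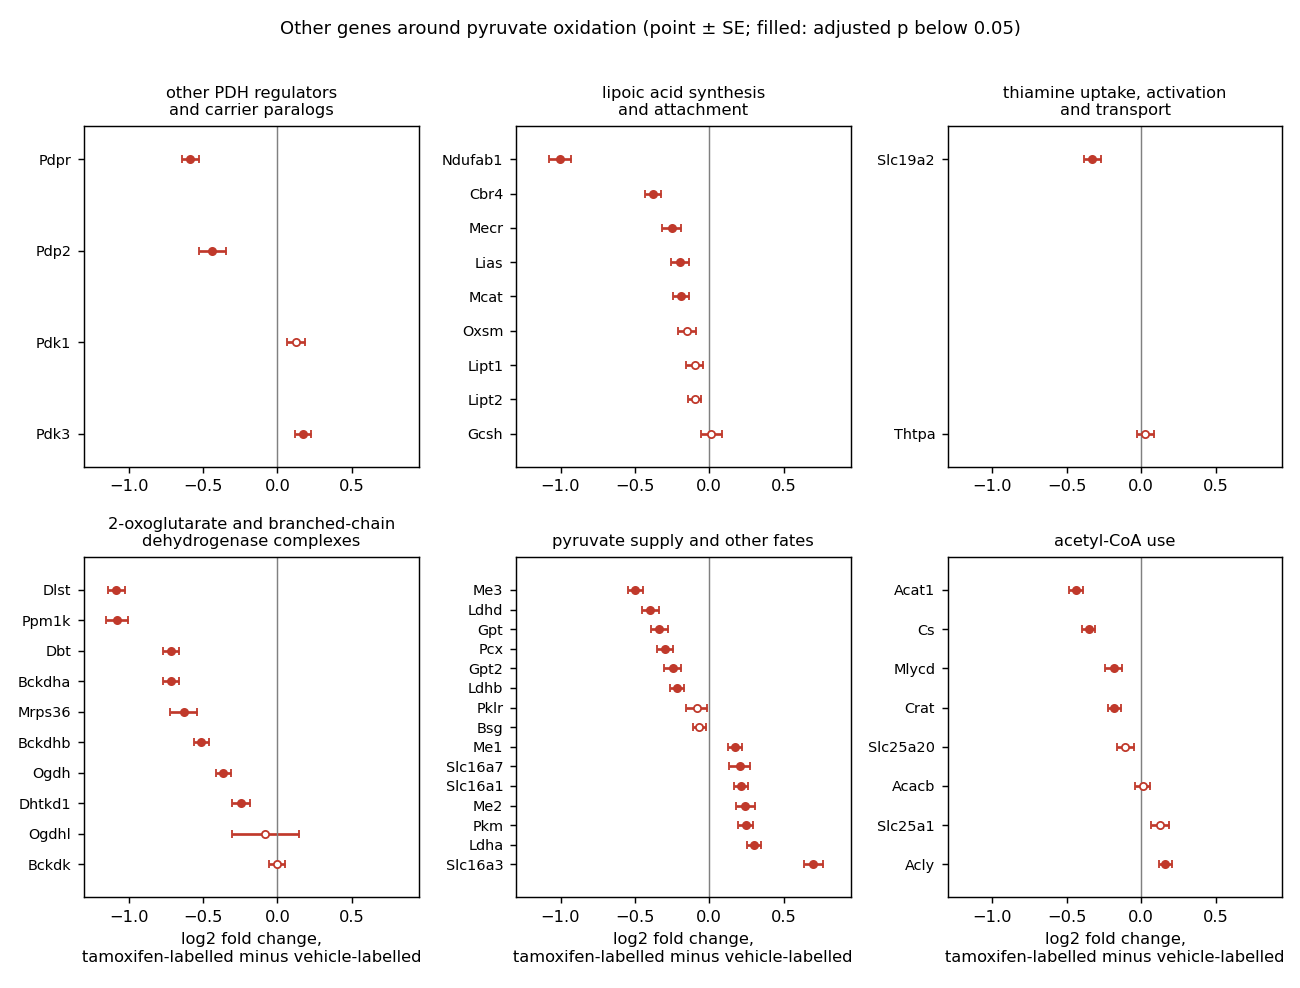
Log2 fold change (x axis, tamoxifen-labelled minus vehicle-labelled, point ± SE, n = 5 arrays per group) of the tested genes of 6 lists around pyruvate oxidation, filled where the limma adjusted p was below 0.05. Phosphatase genes Pdpr and Pdp2 lie left of 0 while Pdk1 and Pdk3 lie right of it, and the pyruvate list runs from -0.50 for Me3 to 0.70 for Slc16a3.

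Since Pdk4 did not pass, the genes known to act on it and the targets regulated with it were examined. Among 16 tested factors, 3 were lower and 6 higher (median 0.007), against 8.28% lower and 13.6% higher over all tested genes. The estrogen-related receptor gene Esrra was lower by -0.42 ± 0.057, and the fatty acid receptor gene Ppara by -0.22 ± 0.056 (SE; limma adjusted p = 5.55e-05 and 0.00898), with groups that did not overlap. Esrrb was lower by -0.25 ± 0.073 (SE; limma adjusted p = 0.0204), and this was lost without tamoxifen-labelled array 1, 3 or 5 (adjusted p = 0.0544, 0.0516 and 0.0563). The PPAR partner gene Rxrg was higher by 0.39 ± 0.048 (SE; limma adjusted p = 1.64e-05), as were Ppargc1b, given above, and Ppargc1a by 0.39 ± 0.095 (SE; limma adjusted p = 0.00813), whose deletion the labels give to all 10 mice. The number called higher was 3 in place of 6 in 5 of the 19 alternative analyses. Among these were the ones without tamoxifen-labelled array 1 or vehicle-labelled array 1 or 4.

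Of 13 tested PPAR targets known to be regulated with Pdk4, 4 were lower and 0 higher, with a median log2 difference of -0.002. Slc25a34, a mitochondrial carrier, was lower by -0.36 ± 0.056 and the lipid droplet gene Plin5 by -0.26 ± 0.056 (SE; limma adjusted p = 0.000245 and 0.00277). Cpt1a, which loads fatty acids onto carnitine, was lower by -0.16 ± 0.053, and the dehydrogenase gene Acadm by -0.15 ± 0.049 (SE; limma adjusted p = 0.0437 and 0.034). The number called lower was 2 in place of 4 without tamoxifen-labelled array 3 or 5 or vehicle-labelled array 1 or 3. It was also 2 without the limit on dim probe sets. Fabp3, a fatty acid binding protein gene that passed only with the robust prior that followed the signal level (adjusted p = 0.048), had a log2 difference of 0.08 ± 0.046 and Angptl4, a lipase inhibitor, one of 0.29 ± 0.20 (SE; limma adjusted p = 0.237 and 0.343). In all, 9 of the 13 did not pass. Most tested genes did not pass either, since 8.28% of all were called lower and 13.6% higher.

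Markers of the cells in the sample were set beside these values. The cardiomyocyte list was present at high signal, and its summed linear signal was not lower: 172478 to 176182 in the tamoxifen-labelled arrays and 168344 to 170807 in the vehicle-labelled arrays. Of its 11 genes 1 was lower and 2 higher (median 0.05), but 1 was higher without any single array other than tamoxifen-labelled array 2, and 0 were lower without tamoxifen-labelled array 5 or vehicle-labelled array 1, 3 or 5. Macrophage markers were higher in 8 of 10, with a summed linear signal of 7177 to 8631 in the tamoxifen-labelled arrays and 6074 to 6984 in the vehicle-labelled arrays. Fibroblast markers were higher in 5 of 9, with sums of 24060 to 26505 in the tamoxifen-labelled arrays and 22373 to 23203 in the vehicle-labelled arrays. That count ran from 2 to 7 over the 19 alternative analyses, and was 3 without tamoxifen-labelled array 1 or vehicle-labelled array 3 or 4. Endothelial markers were higher in 1 of 8 and lower in 0, with sums of 14747 to 16342 in the tamoxifen-labelled arrays and 15166 to 16344 in the vehicle-labelled arrays. Higher calls were made for 2 of 6 smooth muscle, 1 of 4 atrial and 1 of 4 skeletal muscle markers. They were made for 0 of 3 fat cell and 0 of 2 erythroid markers, and 0 were lower in each of these lists. Over all tested genes 13.6% were called higher and 8.28% lower, so 1 or 2 calls in such short lists are not read as a shift. The smooth muscle count was 1 in 4 of the 19 alternative analyses, among them those without tamoxifen-labelled array 3 or 5. The atrial call was Nppa, higher by 0.42 ± 0.072 (SE; limma adjusted p = 0.00046), while Myl7, Myl4 and Sln, named after their values were seen, had log2 differences of -0.20, -0.17 and -0.30 that did not pass, and 1 of the 4 atrial markers was called lower without tamoxifen-labelled array 5. Myl7 spread from 8.81 to 10.54 in the tamoxifen-labelled arrays, against 9.70 to 10.04 in the vehicle-labelled arrays. The fat cell genes Adipoq, Lep and Ucp1 and the skeletal muscle genes Myh1, Myh4 and Mylpf were below the limit on dim probe sets. The part of the macrophage and fibroblast genes in the falls of the subunit genes was not tested.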

How the data were processed

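Values are the log2 signals that the authors deposited. The submitters' processing notes name RMA and Affymetrix Expression Console 1.1; per the labels' protocols each labelling used 450 ng of RNA. The values carry no detection call, and no genome build is given in the sources used here. Of 35556 probe sets, 21789 had 1 gene symbol, 1621 several and 12146 none. The brightest probe set stood for each of 999 genes with several, and the dimmest 30% of genes (log2 cutoff 6.53) were left out.

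Groups were compared with limma 3.58.1 in R 4.3.3 (no covariate, two-sided, Benjamini-Hochberg over 13953 genes, threshold 0.05). Gene pairs were compared with exact permutation tests in scipy 1.17.1. On simulated data for 13953 genes, the code recovered 95.5% of changes of 0.3 and 100% of changes of 1 in this comparison, and 5.29% of its 208 calls were false. Promoters came from RefSeq on GRCm38.p6, where 9 of the 10 members, all but Pdp1, matched. The number of arrays limits the precision.

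The 10 members, the lists and the tests were chosen with earlier results of these data known. Named genes were all members, up to 6 of each list by p (all of a list with 6 or fewer measured genes), the targeted genes, and the 5 profiles nearest to Dlat and to Pdk4. The promoter motifs were listed after results were seen, and the search window was widened from 250 to 300 bases after a first scan. Results were recomputed with the replicate number as a block, another prior, array weights, quantile normalization, median centring, other limits on dim probe sets, probe set means, each array left out in turn and, as an addition made after seeing the data, without the 2 arrays of lowest weight.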

Additional observations from a re-analysis of the deposited data

Results flagged for a closer look

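In each of the 9 measured members the 5 arrays of each group were checked for a value far from the others, in 18 groups of values. Only Pdp1 in the tamoxifen-labelled arrays had one. Array 5 read 10.09 on the log2 scale, the next lowest read 10.41, and that gap was 0.865 of the group's range, above the critical value of 0.71. Chance alone gives such a gap in about 5% of groups.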

How the results depend on the processing

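The falls of Pdha1, Pdhb, Dlat, Dld, Pdhx and Mpc1 kept their direction and their call under all 19 alternatives, and Pdk4 passed under none of them (adjusted p from 0.388 to 0.956, log2 difference from 0.008 to 0.085). The number of members called lower ranged from 6 to 8, with Pdp1 lost or Pdk2 gained, and 0 were called higher. With tamoxifen-labelled array 2 and vehicle-labelled array 4 left out together, 7 members were called lower. The pathway lists together, with 77 genes tested in the main comparison, had 33 genes lower (28 to 36) and 15 higher (10 to 16). Of the 42 gene pairs 32 to 34 passed, against 33 with all arrays. Over all genes 1155 were lower and 1897 higher, and with array weights 1784 were lower. The share of calls that were higher was 62.2% in the main comparison, 51.6% with array weights, 49.6% without tamoxifen-labelled array 2 and 46.2% without that array and vehicle-labelled array 4. Pdhb minus Pdhx, which passed at an adjusted p of 0.0404, did not pass in 7 of 12 alternatives, each of them with 1 array left out (adjusted p from 0.0606 to 0.0808). Replicate numbers are shared by the groups in the titles, and same-numbered arrays deviated together weakly, with correlations from 0.0377 to 0.204. For tamoxifen-labelled arrays 1, 2 and 5 the best match was the vehicle-labelled array of the same number, and for arrays 3 and 4 it was not. With the replicate number as a block 1298 genes were lower and 2225 higher, and 7 members were lower. Of the PPAR targets 1 was then higher, in place of 0, which was Angptl4 (0.29, adjusted p = 0.0375), and 1 was higher with the robust prior, which was Fabp3. No result reversed. In the simulated data described above, with 5 arrays a group and the same SD for every gene, 95.5% of changes of 0.3 were recovered. Changes as small as those of Pdp1 and Pdk2 were not simulated.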

Other observations

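Pdk4 was among the brightest genes of these arrays. Of the 104 tested genes with a mean log2 signal of 13 or more, a limit chosen, and once lowered, after the values were seen, 26 were called lower and 18 higher. Over all tested genes 8.28% were called lower and 13.6% higher. The deepest fall among the 104 was that of Atp5c1, an ATP synthase subunit, at -0.71. Pdk4 had means of 13.92 in the tamoxifen-labelled and 13.88 in the vehicle-labelled arrays. That is well above the limit, so the counts do not describe genes at its signal level. The 5 tested genes whose array profile was most like that of Pdk4 were Bmp6, Rbm5, Fam168a, Eln and Rhoj, with root mean square distances of 0.0524 to 0.059 log2 units over 10 arrays. Genes chosen in this way have small differences between the groups, as Pdk4 has.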
